A study of Mus musculus with 31 samples.

Results

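Astrocytes sorted from mice that received 1 injection of inflammatory cytokines were compared with astrocytes from mice that received 1 injection of PBS. The members were the 3 RNA-seq libraries labelled 1X cytokine and the 3 labelled 1X PBS, chosen by their titles. They are 6 of 12 RNA-seq libraries and 6 of 31 samples of the series, and the 19 ATAC-seq samples were not analysed here. Per the labels, all 6 came from C57Bl/6 mice, titled SPF, female and 10 weeks old. The 1X cytokine mice received IL-1β at 100 ng/mL with TNF-α at 50 ng/mL, delivered to the lateral ventricles on day 7 only. The 1X PBS mice received PBS at the same site on day 7 only. Astrocytes of both groups were sorted 18 to 24 hours after the injection. TNF-α alone is named in the short description of the cytokine libraries, and both cytokines in the treatment protocol. The sources used here name no sort markers, and the labels do not say whether each library is 1 animal. P-values therefore set the difference between labels against the spread of libraries within a group, which may in part be technical. The fit took that spread from all 12 RNA-seq libraries, including those of mice injected a second time.

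IL-1β and TNF-α are cytokines that immune cells and glia release in inflamed brain. Their receptors signal through adaptor proteins to the transcription factor NF-kB, which drives genes for chemokines, adhesion molecules and acute-phase proteins, and which also drives its own inhibitors. Reactive astrocytes raise intermediate filament and complement genes and lower genes of potassium, water and glutamate handling.

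The 1X libraries did not sort by label. The library labelled 1X cytokine replicate 1 resembled replicates 2 and 3 of 1X PBS, and the library labelled 1X PBS replicate 1 resembled replicates 2 and 3 of 1X cytokine. Each group is therefore named by the label of its libraries. Whether the labels of the 2 replicate 1 libraries were exchanged was not tested, and every fold change and count by label below holds only for the labels as given. Library totals ran from 1878418 to 4035251 estimated counts in 1X cytokine and from 2785087 to 4661577 in 1X PBS, and 3 counts correspond to 0.644 to 1.60 CPM (counts scaled to a common library size). Mitochondrially encoded genes took 4.38% to 5.83% of the counts. The 3 deepest of the 6 libraries were 1X cytokine replicate 1 and 1X PBS replicates 2 and 3, at 4035251, 3634445 and 4661577 counts. The part of depth in the likeness of these libraries was not tested.

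The astrocyte label was checked against 10 astrocyte markers, all of which were measured. The list's level, which for every list is the mean log2(CPM + 0.5) of the measured genes turned back to CPM, was 591, 942 and 1073 CPM in 1X cytokine replicates 1, 2 and 3 and 1177.5, 452 and 431 CPM in 1X PBS replicates 1, 2 and 3. Markers of other cell types were also counted. The choroid plexus gene Ttr, which encodes transthyretin, had 27229, 11545 and 20336 CPM in 1X cytokine and 8141, 25334 and 25811 CPM in 1X PBS. The hemoglobin gene Hba-a2 had 3087, 396 and 1076 CPM in 1X cytokine and 2481, 6611 and 27009.7 CPM in 1X PBS.

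Between pairs of libraries, differences of at least 2-fold were counted over 10800 genes with a mean CPM of at least 10. Replicate 1 of 1X cytokine differed from 1X cytokine replicates 2 and 3 at 8.49% and 11.6% of the genes, but from 1X PBS replicates 2 and 3 at 3.96% and 3.28%. Replicate 1 of 1X PBS differed from 1X PBS replicates 2 and 3 at 16.9% and 16.5% of the genes, but from 1X cytokine replicates 2 and 3 at 2.99% and 3.81%. Replicates 2 and 3 of 1X cytokine differed from each other at 2.87% and those of 1X PBS at 0.528%. Over 12699 genes with a mean CPM of at least 5, replicate 1 of 1X cytokine lay nearer to the mean of 1X PBS replicates 2 and 3 in 65.3%. The 1X PBS replicate 1 lay nearer to the mean of 1X cytokine replicates 2 and 3 in 70.6%.

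**Figure D1:**
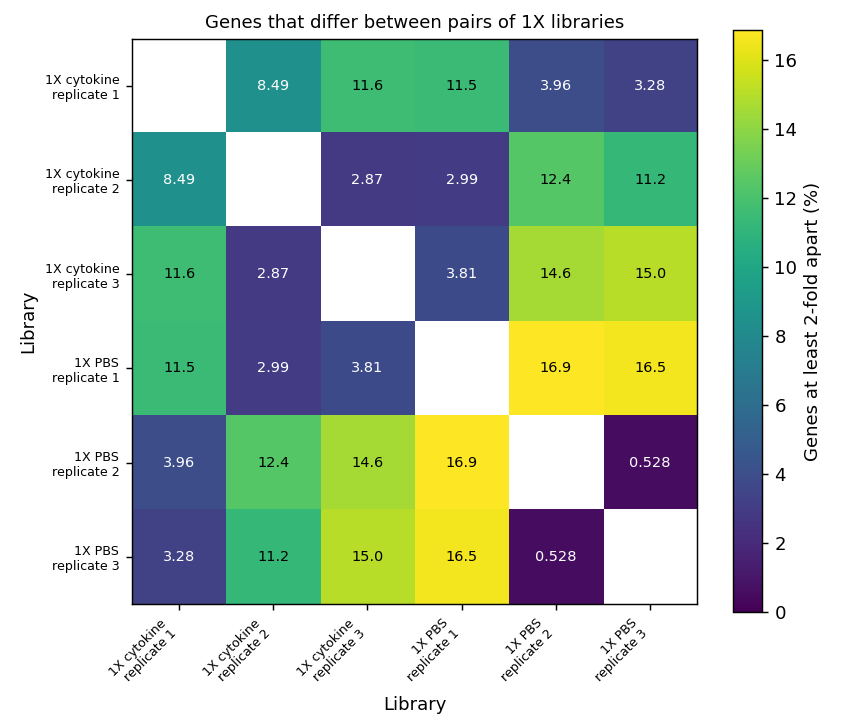
Share of 10800 genes that were at least 2-fold apart (%) for each pair of the 6 libraries, named on both axes. Each replicate 1 shows a lower share against replicates 2 and 3 of the other label than against those of its own, with 3.96% and 3.28% for 1X cytokine replicate 1 and 2.99% and 3.81% for 1X PBS replicate 1.

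The question behind the comparison by label is which astrocyte genes differ after a single cytokine injection. Of 14490 genes tested, edgeR called 0 (0%) at an adjusted p under 0.05, and the smallest adjusted p was 0.089. At an unadjusted p under 0.05, 783 genes (5.40%) passed, 257 (1.77%) higher and 526 (3.63%) lower in 1X cytokine. With the 6 libraries labelled 1X fitted alone, edgeR called 0 and 245 genes had an unadjusted p under 0.05, at a common biological coefficient of variation of 0.309, against 0.237 with 12 libraries. The log2 fold change was above 0 in 48.2% of the genes. DESeq2 called 2 genes, Prl and Bpifa1, both at 0 in every 1X PBS library and in 1 of the 3 1X cytokine libraries. These genes, which encode a pituitary hormone and an airway protein, were named after their values were seen.

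Leaving out a replicate 1 changed this count. Without 1X PBS replicate 1, edgeR called 1141 of 15106 genes (7.55%), 649 (4.30%) higher and 492 (3.26%) lower in 1X cytokine. Without 1X cytokine replicate 1 it called 2 of 14709 (0.0136%), Htra1 and Fbxo2, both higher in 1X cytokine, of which Fbxo2 is named only for this count. Without both it called 3489 of 14848 (23.5%), 1788 (12.0%) higher and 1701 (11.5%) lower. Leaving out each other library in turn gave counts of 0, except that 3 clone-named genes (0.0199%) passed without 2X cytokine replicate 1, all 3 lower in 1X cytokine. With both replicate 1 libraries removed, each label held 2 libraries, which were chosen for this with results known.

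Genes that followed the labels in all 6 libraries were those in which every 1X cytokine library lay above, or every one lay below, every 1X PBS library. There were 896 such genes (6.18% of 14490). Some genes meet this condition under any division of 6 libraries into 3 and 3. The count is a description with no test, and a label effect cannot be read from it. In 419 (2.89%) 1X cytokine was higher and in 477 (3.29%) it was lower. The distance between the nearest libraries of both labels was small, with a median of 0.08 on the log2(CPM + 0.5) scale, and 26 genes had a distance of at least 0.5. The 7 genes at a distance of at least 1 all had clone or pseudogene names, and 3 of them, Gm37375, Gm37385 and Gm43590, had identical values in every library. Protein-coding genes made up 84.3% of the 896, against 88.5% of all genes tested.

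The balance between directions depended on the scaling. On the deposited TPM values 876 genes were higher and 207 lower without overlap, so that 80.9% of them were higher, against 46.8% on CPM. The median log2 difference of all genes was 0.15 on TPM and -0.01 on CPM. Of the 419 higher genes 277 had no overlap on TPM too, and of the 477 lower genes 122 did. With RLE scaling 416 and 443 did.

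Among protein-coding genes with a mean CPM of at least 5, Rflna had the widest distance with 1X cytokine higher. Rflna (chromosome 5, 125003221 to 125012547, plus strand, GRCm38) encodes refilin A, a protein that binds filamin and actin bundles. It had 10.1, 8.83 and 8.79 CPM in 1X cytokine replicates 1, 2 and 3 and 5.33, 4.99 and 5.33 CPM in 1X PBS. The labels stood apart, as the choice of the gene required, and the libraries within each lay close together. The log2 fold change was 0.83 ± 0.28 (SE), at an edgeR adjusted p of 0.866. The genes named below for their distance were chosen by it. Their separation and fold changes are therefore no separate support for a label effect.

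Metabolic enzymes were among the genes with the widest distances. Ggt1, which encodes a gamma-glutamyltransferase of glutathione turnover, had 16.5, 15.4 and 13.2 CPM in 1X cytokine and 7.99, 4.71 and 9.28 CPM in 1X PBS. Khk, the first enzyme of fructose breakdown, had 24.3, 23.8 and 29.7 CPM in 1X cytokine and 17.5, 18.3 and 16.7 CPM in 1X PBS. Aox1, an aldehyde oxidase, had 53.1, 59.5 and 54.9 CPM in 1X cytokine and 41.8, 34.9 and 41.5 CPM in 1X PBS. By the rule that chose them, all 3 were higher in every 1X cytokine library. Their log2 fold changes were 1.04 ± 0.27, 0.56 ± 0.14 and 0.50 ± 0.12, with edgeR adjusted p-values of 0.866.

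Regulators of signalling and RNA showed similar distances. Pde2a, a phosphodiesterase that breaks down cyclic nucleotides, had 17.7, 12.3 and 8.24 CPM in 1X cytokine and 3.80, 5.54 and 5.80 CPM in 1X PBS. Cpeb1, which binds mRNAs and controls their translation, had 35.4, 38.4 and 40.1 CPM in 1X cytokine and 27.8, 23.3 and 27.8 CPM in 1X PBS. Fxr2, an RNA-binding relative of the fragile X protein, had 25.1, 26.1 and 26.4 CPM in 1X cytokine and 17.1, 19.1 and 17.9 CPM in 1X PBS. Within each label these genes varied less than between labels, except that Pde2a spanned 8.24 to 17.7 CPM in 1X cytokine. Wrnip1, Ccdc136, Btbd2, Unc119 and P3h3 completed the 12 genes at the top of this direction, and log2 fold changes of the 12 ran from 0.50 to 1.35. On TPM, Wrnip1 and Fxr2 overlapped and the other 10 did not.

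In the other direction Traf1 (chromosome 2, 34941750 to 34961772, minus strand) stood among the 12 genes with the widest distances. It encodes an adaptor of TNF receptors and is itself a known NF-kB target. Traf1 had 35.9, 28.0 and 45.1 CPM in 1X cytokine and 58.2, 73.4 and 56.4 CPM in 1X PBS. Every 1X cytokine library was below every 1X PBS library, at a log2 fold change of -0.80 ± 0.19 and an edgeR adjusted p of 0.866. In the libraries of mice injected a second time the order was the opposite, with 66.4, 64.0 and 66.6 CPM in 2X cytokine and 42.7, 46.1 and 31.4 CPM in 2X PBS.

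Trex1, a DNA exonuclease that limits sensing of DNA in the cytosol, had 19.2, 15.0 and 9.89 CPM in 1X cytokine and 24.0, 33.8 and 30.8 CPM in 1X PBS. Cd72, a receptor of B cells and myeloid cells, had 5.41, 1.15 and 1.10 CPM in 1X cytokine and 7.23, 9.42 and 8.81 CPM in 1X PBS. Arrdc3, an arrestin-like protein of receptor trafficking, had 106, 108 and 107 CPM in 1X cytokine and 134, 137 and 157 CPM in 1X PBS. Of these, Arrdc3 was the steadiest within 1X cytokine, and Cd72 was far higher in replicate 1 of 1X cytokine than in replicates 2 and 3.

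Trmt10b, a tRNA methyltransferase, had 7.37, 6.91 and 6.59 CPM in 1X cytokine and 11.8, 14.7 and 11.4 CPM in 1X PBS. Rap2c, a small GTPase, had 6.14, 8.45 and 7.69 CPM in 1X cytokine and 11.8, 11.9 and 12.99 CPM in 1X PBS. Galnt7, an enzyme that adds sugars to proteins, had 12.0, 13.8 and 13.7 CPM in 1X cytokine and 19.4, 19.1 and 19.3 CPM in 1X PBS. By the rule that chose these genes, neither label's libraries reached the range of the other. Moap1, Prorsd1, Znrf1 and Retreg1 were also among the 12 genes at the top of this direction, and on TPM Cd72, Znrf1 and Retreg1 overlapped.

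The remaining gene, Zc3h11a, had the largest spread and is uncertain, because 2 gene identifiers share its symbol. The identifier with no overlap had 8.85, 36.1 and 7.69 CPM in 1X cytokine and 51.7, 72.3 and 52.9 CPM in 1X PBS. The other identifier ran the opposite way, with 81.1, 33.8 and 67.0 CPM in 1X cytokine and 28.9, 18.3 and 39.4 CPM in 1X PBS. Their sum was 90.0, 69.9 and 74.7 CPM in 1X cytokine and 80.6, 90.6 and 92.3 CPM in 1X PBS, which overlapped.

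**Figure D2:**
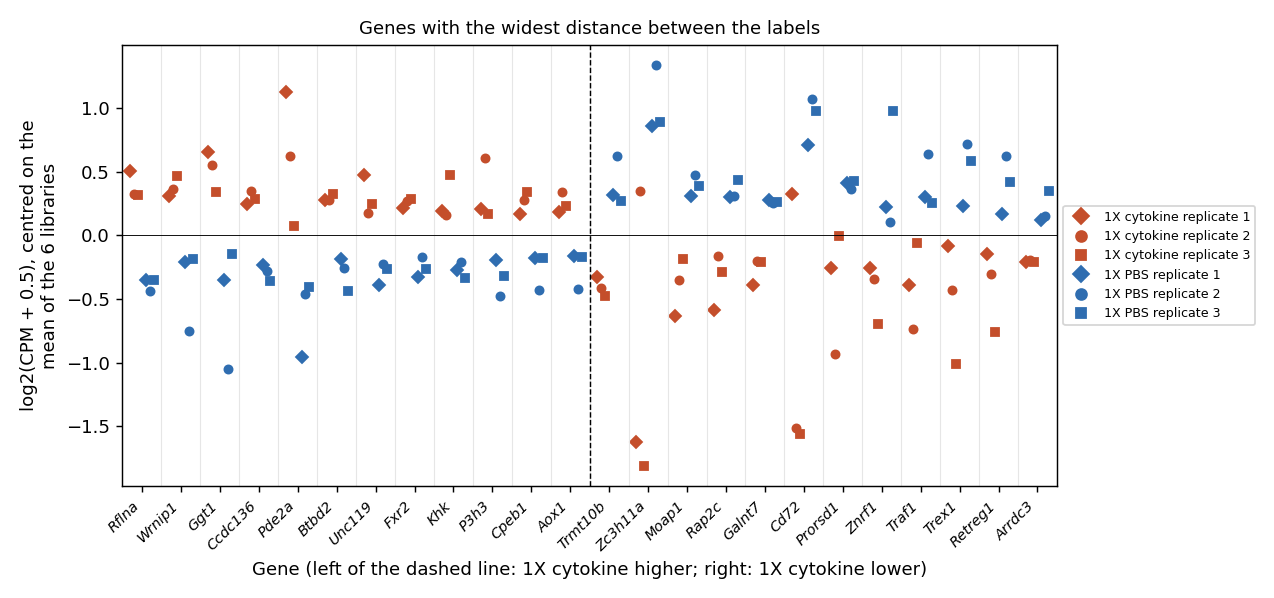
log2(CPM + 0.5) of the 24 protein-coding genes with the widest distance between the labels, centred on the mean of the 6 libraries of each gene. Points are single libraries, red for 1X cytokine and blue for 1X PBS, with diamonds for replicate 1, and the 12 genes left of the dashed line have 1X cytokine higher, from Rflna at 10.1, 8.83 and 8.79 CPM against 5.33, 4.99 and 5.33 CPM in 1X PBS.

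Of 491 genes measured in the gene lists, 15 (3.05%) had no overlap, a lower share than the 6.18% of all genes tested. They were Traf1 and 14 genes outside those 24, which are given as a description. Higher in 1X cytokine were Sult1a1, Klf9, Bcl6, Pfkp and Hdac2. Sult1a1, a sulfotransferase, had 59.2, 109 and 47.3 CPM in 1X cytokine and 30.4, 43.8 and 39.9 CPM in 1X PBS. Klf9, a transcription factor that responds to glucocorticoids, had 77.4, 99.1 and 73.6 CPM in 1X cytokine and 72.7, 61.0 and 67.5 CPM in 1X PBS. Pfkp, a phosphofructokinase of glycolysis, had 226, 212 and 226 CPM in 1X cytokine and 186, 189.5 and 186 CPM in 1X PBS. Sult1a1 and Klf9 belong to a list of 16 glucocorticoid-responsive genes, of which 9 had a higher and 7 a lower mean and 0 were called.

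Lower in 1X cytokine were Tapbpl, Igtp, Il6st, Bhlhe40, Hmox1, Herpud1, Hspe1, Tek and Gad2. Il6st, the shared receptor chain gp130 of IL-6 type cytokines, had 201, 209 and 189.6 CPM in 1X cytokine and 215, 252 and 225 CPM in 1X PBS. Hmox1, heme oxygenase of the oxidative stress response, had 39.8, 38.4 and 25.3 CPM in 1X cytokine and 46.8, 50.7 and 40.1 CPM in 1X PBS. Herpud1, of the unfolded protein response, had 139, 134 and 131 CPM in 1X cytokine and 157, 169.8 and 153 CPM in 1X PBS. The distances between the nearest libraries of these genes were under those of the 24 genes above.

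The libraries of mice injected a second time, 3 labelled 2X cytokine and 3 labelled 2X PBS, share no library with the 1X comparison. Of all 14490 genes, 11.2% lay without overlap higher in 2X cytokine and 14.1% lower. Of the 419 genes higher in 1X cytokine, 9.55% were without overlap higher and 11.5% lower in 2X cytokine. Of the 477 genes lower in 1X cytokine, 13.6% were lower and 5.03% higher in 2X cytokine. In neither direction did the share that kept its direction exceed that of all genes. Khk kept its direction, with 22.8, 27.1 and 24.0 CPM in 2X cytokine and 18.2, 18.0 and 19.2 CPM in 2X PBS. Of the 38 named genes without overlap in 1X, 11 kept their direction without overlap and 3, Traf1, Cpeb1 and Bcl6, had the opposite one. Over all genes, edgeR called 0 (0%) differences between the 1X and 2X effects, and 754 (5.20%) had an unadjusted p under 0.05.

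Replicate 1 of 1X cytokine lay at least 2-fold above both replicates 2 and 3 in 549 genes (3.79%) and at least 2-fold below both in 528 (3.64%). Replicate 1 of 1X PBS lay at least 2-fold above both of its replicates 2 and 3 in 861 genes (5.94%) and below both in 1428 (9.86%). Both sets overlapped in opposite directions. In 390 genes (2.69%) the cytokine replicate 1 was above and the PBS replicate 1 below, which is 71.0% of the 549 and 27.3% of the 1428. In 241 genes (1.66%) the cytokine replicate 1 was below and the PBS replicate 1 above, which is 45.6% of the 528 and 28.0% of the 861. Both replicate 1 libraries were above in 6 genes (0.0414%) and both below in 35 (0.242%). Across 12699 genes with a mean CPM of at least 5, the distance of replicate 1 from the mean of replicates 2 and 3 in 1X cytokine correlated with that in 1X PBS at a Pearson r of -0.69, as a description of genes that share the same 6 libraries.

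**Figure D3:**
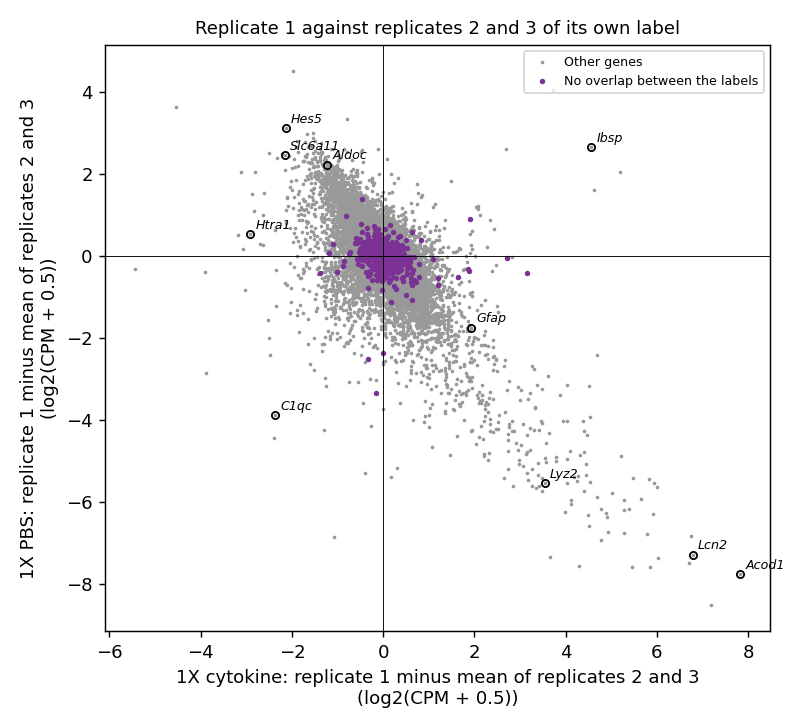
Distance of replicate 1 from the mean of replicates 2 and 3 on the log2(CPM + 0.5) scale, in 1X cytokine (horizontal) and 1X PBS (vertical), for 12699 genes with a mean CPM of at least 5. Points run from the upper left, with Hes5 and Slc6a11, to the lower right, with Lcn2 and Acod1, and the 747 genes without overlap between the labels (purple) lie mostly near the centre.

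The genes high in 1X cytokine replicate 1 and in 1X PBS replicates 2 and 3 held inflammatory and myeloid genes. In bulk samples such as these, fewer cells of a type and less RNA per cell cannot be told apart. Lcn2 (chromosome 2, 32384633 to 32388252, minus strand), which encodes lipocalin 2, an acute-phase protein that binds iron carriers, had 797, 11.5 and 3.85 CPM in 1X cytokine and 5.33, 1076 and 776 CPM in 1X PBS. Acod1, which makes itaconate in activated macrophages, had 149.7, 0.384 and 0 CPM in 1X cytokine and 1.14, 331 and 388 CPM in 1X PBS. Clec4e, a pattern receptor of myeloid cells, had 132, 1.15 and 0 CPM in 1X cytokine and 0.380, 307 and 333 CPM in 1X PBS. In each of them the 3 high libraries were cytokine replicate 1 and PBS replicates 2 and 3, and 1 count stands behind some of the values under 1 CPM.

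The genes of the reverse pattern held astrocyte genes of the resting brain. Slc6a11, a GABA transporter, had 129, 553 and 607 CPM in 1X cytokine and 576, 96.7 and 114 CPM in 1X PBS. Hes5, a target of Notch signalling, had 27.0, 112 and 129.7 CPM in 1X cytokine and 128, 11.4 and 18.1 CPM in 1X PBS. S1pr1, a receptor for sphingosine phosphate, had 409, 1028 and 1465 CPM in 1X cytokine and 1614, 244 and 261 CPM in 1X PBS. Etnppl, a phospholyase of lipid metabolism found in astrocytes, had 75.7, 305 and 259 CPM in 1X cytokine and 319, 40.4 and 50.6 CPM in 1X PBS. All 4 were low in cytokine replicate 1 and in PBS replicates 2 and 3.

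Few genes set both replicate 1 libraries apart in the same direction. C1qc, a chain of complement C1q made by microglia, had 4.67, 18.8 and 36.3 CPM in 1X cytokine and 2.66, 52.1 and 41.7 CPM in 1X PBS. Tmem259, Fam174a, Lzts2 and Yipf4 were also low in both replicate 1 libraries. Ibsp, a bone matrix protein gene, had 26.5, 0.768 and 0.549 CPM in 1X cytokine and 8.37, 0.277 and 2.09 CPM in 1X PBS, so both replicate 1 libraries were above their own label.

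Cytokine replicate 1 was not the same as the PBS libraries it resembled. It lay at least 2-fold above both 1X PBS replicates 2 and 3 in 71 genes (0.490%) and below both in 489 (3.37%). Lyz2, the lysozyme of macrophages, had 282 CPM in 1X cytokine replicate 1, against 1241 and 1119.5 CPM in 1X PBS replicates 2 and 3. Htra1, a secreted serine protease of astrocytes, had 274, 2177 and 1979 CPM in 1X cytokine and 644, 443 and 452 CPM in 1X PBS, so its lowest value was cytokine replicate 1. PBS replicate 1 lay at least 2-fold above both 1X cytokine replicates 2 and 3 in 124 genes (0.856%) and below both in 311 (2.15%).

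**Figure D4:**
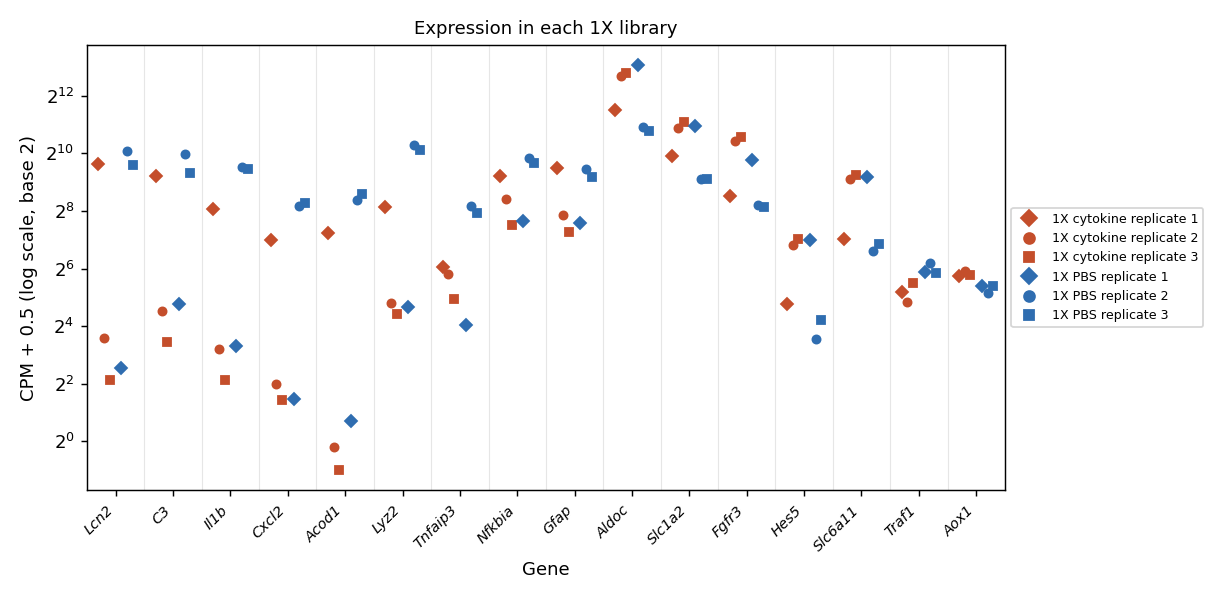
CPM + 0.5 of 16 genes on a log scale in each library, red for 1X cytokine and blue for 1X PBS, with diamonds for replicate 1. In Lcn2 the red diamond stands at 797 CPM with the blue circle and square at 1076 and 776 CPM, while Traf1 and Aox1 at the right have no overlap between colours.

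The genes that set replicate 1 apart were also read in the 2X libraries. Their choice used no 2X values beyond the filter and scaling shared by all 12 libraries. Of the 390 genes high in cytokine replicate 1 and low in PBS replicate 1, 311 (79.7%) were lower in 2X cytokine than in 2X PBS without overlap and 1 (0.256%) was higher, against 14.1% and 11.2% of all genes. Of the 241 genes of the reverse pattern, 104 (43.2%) were higher in 2X cytokine and 4 (1.66%) lower. Lcn2 had 15.0, 2.26 and 1.20 CPM in 2X cytokine and 570.1, 363 and 425 CPM in 2X PBS. Those 311 genes were higher in the 2X libraries labelled PBS. By the choice of genes they were also higher in 1X PBS replicates 2 and 3 than in replicate 1.

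Some receptors of the injected cytokines followed the division by replicate. Among 14 receptors and adaptors, cytokine replicate 1 lay at least 2-fold above replicates 2 and 3 in 3, and PBS replicate 1 lay at least 2-fold below its own in 4. Il1r2, a decoy receptor that binds IL-1 without signalling, had 137, 2.30 and 1.10 CPM in 1X cytokine and 1.14, 262 and 286 CPM in 1X PBS. The signalling receptor Il1r1 had 23.3, 12.7 and 9.34 CPM in 1X cytokine and 9.13, 28.0 and 26.7 CPM in 1X PBS. Tnfrsf1a, the main TNF receptor, had 109, 91.8 and 78.0 CPM in 1X cytokine and 81.0, 118 and 123 CPM in 1X PBS, a narrower range. Irak2, a kinase of the IL-1 receptor complex, did not divide by replicate, with 68.6, 72.2 and 52.2 CPM in 1X cytokine and 79.9, 68.4 and 70.3 CPM in 1X PBS. Of the 14 receptors and adaptors, the mean in 1X cytokine was higher for 2 and lower for 12, 0 had no overlap and 0 were called, with a median log2 fold change of -0.32 against -0.01 for all genes tested. The median was -0.21 without 1X PBS replicate 2 and -0.18 without 1X cytokine replicate 3.

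For 20 NF-kB targets and regulators the 1X cytokine mean was higher for 1, Vcam1, and lower for 19, at a median log2 fold change of -0.80. None was called by edgeR over all genes. Traf1 alone had no overlap, 1 of 20 genes against 6.18% of all genes. Nfkbia, the inhibitor IκBα that NF-kB induces, had 588, 339 and 181 CPM in 1X cytokine and 199, 924 and 803 CPM in 1X PBS. Tnfaip3, which encodes the inhibitor A20, had 65.4, 55.7 and 30.2 CPM in 1X cytokine and 16.0, 286 and 246 CPM in 1X PBS. In both genes PBS replicates 2 and 3 were highest, and in Tnfaip3 cytokine replicate 1 was near its own label. Without both replicate 1 libraries, edgeR called 16 of the 20 as lower in 1X cytokine and 1 as higher, and the median was -1.74. The shares of all genes in that fit were 11.5% and 12.0%. Both libraries were left out with results known, so these calls are a description only. The median was -1.33 without 1X cytokine replicate 1 and -0.45 without 1X PBS replicate 2.

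The promoters of 4 known NF-kB targets are shown because their levels differed in pattern. Cxcl2 and Nfkbia divided by replicate, in Tnfaip3 PBS replicate 1 alone left its label, and Traf1 had no overlap between the labels. Each run is the 250 bases before the gene's start, from RefSeq on GRCm38.p6, and capitals mark matches, on either strand, to a 10-base form of the NF-kB site read as 3 G, any 2 bases, 3 T and 2 C. The pattern was chosen after the promoters had been read.
Nfkbia: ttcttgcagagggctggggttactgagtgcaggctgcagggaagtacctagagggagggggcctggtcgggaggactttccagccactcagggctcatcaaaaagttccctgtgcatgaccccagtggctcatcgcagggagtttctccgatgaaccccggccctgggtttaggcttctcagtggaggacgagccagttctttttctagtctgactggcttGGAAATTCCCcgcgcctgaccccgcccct
Tnfaip3: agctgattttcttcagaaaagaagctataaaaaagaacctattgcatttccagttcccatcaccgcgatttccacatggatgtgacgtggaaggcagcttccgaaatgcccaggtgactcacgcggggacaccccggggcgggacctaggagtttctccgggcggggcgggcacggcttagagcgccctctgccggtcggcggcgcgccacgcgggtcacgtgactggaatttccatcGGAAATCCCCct
Cxcl2: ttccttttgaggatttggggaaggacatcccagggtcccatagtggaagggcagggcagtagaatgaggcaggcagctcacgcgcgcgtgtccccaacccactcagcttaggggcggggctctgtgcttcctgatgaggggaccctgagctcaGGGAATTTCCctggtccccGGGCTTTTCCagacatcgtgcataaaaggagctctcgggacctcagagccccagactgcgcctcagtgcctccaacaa
Traf1: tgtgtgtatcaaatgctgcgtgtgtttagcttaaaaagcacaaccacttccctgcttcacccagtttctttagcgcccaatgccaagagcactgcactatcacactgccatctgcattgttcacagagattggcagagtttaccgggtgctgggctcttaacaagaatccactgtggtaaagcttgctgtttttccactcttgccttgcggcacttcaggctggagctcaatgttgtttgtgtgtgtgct
Nfkbia lies on chromosome 12 (55492648 to 55492897, minus strand), Tnfaip3 on chromosome 10 (19015411 to 19015660, minus strand; the first of its 2 listed starts), Cxcl2 on chromosome 5 (90903649 to 90903898, plus strand) and Traf1 on chromosome 2 (34961773 to 34962022, minus strand). Cxcl2 held 2 matches, Nfkbia and Tnfaip3 1 each, and Traf1 0 in this window. The second listed start of Tnfaip3 also held 0. So did the RefSeq window of Lcn2 (32387740 to 32387989, minus strand), a gene that divided by replicate. That window lies inside the gene span given above for Lcn2, so the bases before that span were not read. Of 16 genes of the NF-kB list in the promoter table, 4 held a match: Nfkbia, Tnfaip3, Nfkb2 and Rel. Among all 32851 promoter windows 1.41% did. Of the genes high in cytokine replicate 1 and low in PBS replicate 1, 278 were in the table and 20 (7.19%) held a match, against 1.76% of the tested genes found there. For the genes without overlap between the labels the shares were 1.62% of 309 higher and 1.38% of 362 lower in 1X cytokine. A match describes letters and not a bound site.

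Among 20 measured cytokines and chemokines the 1X cytokine mean was higher for 4 and lower for 16, with a median log2 fold change of -0.99 and 0 called. Il1b, the gene of 1 of the injected cytokines, had 265, 8.83 and 3.85 CPM in 1X cytokine and 9.51, 729 and 707 CPM in 1X PBS. Cxcl2, which attracts neutrophils, had 126, 3.46 and 2.20 CPM in 1X cytokine and 2.28, 291 and 311 CPM in 1X PBS. Cxcl12, made by astrocytes and vessels at rest, had 146, 119 and 81.9 CPM in 1X cytokine and 155, 107 and 112 CPM in 1X PBS. Its libraries overlapped between labels without the division by replicate. Without 1X cytokine replicate 1 the median was -1.87, and without 1X PBS replicate 2 it was -0.53. Without 1X PBS replicate 1, edgeR called 4 of 21 lower, against 3.26% of all genes in that fit. Without 1X cytokine replicate 1 it called 0 of the list. Without both replicate 1 libraries, a choice made with results known, it called 16 of 20 lower, against 11.5%. In 10 of the 20 genes cytokine replicate 1 lay at least 2-fold above replicates 2 and 3, and in 16 PBS replicate 1 lay at least 2-fold below its own.

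Complement, acute-phase and reactive genes divided by replicate as well. C3, the central complement component, had 589, 22.7 and 10.4 CPM in 1X cytokine and 26.6, 997 and 634 CPM in 1X PBS. Gfap, the intermediate filament of reactive astrocytes, had 725, 233 and 153 CPM in 1X cytokine and 189, 701 and 585 CPM in 1X PBS. Timp1, an inhibitor of matrix proteases raised in reactive astrocytes, departed from this, with 135, 83.3 and 45.6 CPM in 1X cytokine and 143, 124 and 129 CPM in 1X PBS. All 3 PBS libraries were within a narrow range for Timp1, and PBS replicate 1 was the highest of them. The 1X cytokine mean was lower for 17 of 18 complement and acute-phase genes, at a median log2 fold change of -0.70. It was lower for 12 of 13 pan-reactive genes, at a median of -0.49, and 0 were called in either list. Without 1X cytokine replicate 1 the medians were -1.44 and -1.32, and without 1X cytokine replicate 3 they were -0.32 and -0.22. Without both replicate 1 libraries edgeR called 15 of the 18 and 10 of the 13 lower, against 11.5% of all genes in that fit. Those libraries were left out with these results known, so the calls are no separate support.

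In the list of 26 genes of resting astrocytes, the mean was higher in 1X cytokine for 25 and lower for 1, Nfia, at a median log2 fold change of 0.36 and with 0 called. Without 1X PBS replicate 1 the median was 1.29. Without both replicate 1 libraries, a choice made with results known, it was 1.56. In that fit 25 of the 26 were called higher, against 12.0% of all genes. Without 1X PBS replicate 2 or 3 the median was 0.09 or 0.11, and without 1X cytokine replicate 1 or 3 it was 0.67 or 0.21. In 24 of the 26, PBS replicate 1 lay at least 2-fold above replicates 2 and 3, and in 11 cytokine replicate 1 lay at least 2-fold below its own. Fgfr3, a growth factor receptor of astrocytes, had 367, 1394 and 1532 CPM in 1X cytokine and 869, 295 and 282 CPM in 1X PBS. Slc1a2, the glutamate transporter GLT-1, had 969, 1878 and 2176 CPM in 1X cytokine and 1974, 546 and 546 CPM in 1X PBS. Aqp4, which encodes aquaporin 4 on the endfeet around vessels, had 327, 455 and 659 CPM in 1X cytokine and 789, 266 and 279 CPM in 1X PBS. The level of the whole list was 543, 1067 and 1236 CPM in 1X cytokine and 1273, 402 and 403 CPM in 1X PBS.

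By the level of each list, antigen presentation genes were lowest in the same 3 libraries as the inflammatory genes. The 1X cytokine mean was lower for all 7 measured genes of MHC class II presentation, at a median log2 fold change of -1.50, and in all 7 PBS replicate 1 lay at least 2-fold below replicates 2 and 3. H2-Ab1, a class II chain, had 74.5, 19.6 and 27.5 CPM in 1X cytokine and 20.2, 217 and 187 CPM in 1X PBS. Of 22 class I genes 21 had a lower mean, with a median of -0.39, and of 25 interferon-stimulated genes 24 did, with a median of -0.37. Irf1, a transcription factor of the interferon response, was the exception in mean, with 144, 186 and 99.5 CPM in 1X cytokine and 118, 128 and 136 CPM in 1X PBS. Ifit3, of the same list, ran against the division by replicate. It had 36.4, 40.7 and 44.5 CPM in 1X cytokine and 68.5, 39.6 and 41.7 CPM in 1X PBS. By edgeR 0 genes of these lists were called. Without 1X PBS replicate 1 it called 6 of 8 class II genes lower, against 3.26% of all genes in that fit. Without 1X cytokine replicate 1 the median of the class I genes was -0.61 and that of the interferon-stimulated genes -0.72.

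Some lists divided little by label or by replicate. Of 15 genes of acetyl-CoA supply and histone acetylation, the 1X cytokine mean was higher for 8 and lower for 7, at a median log2 fold change of 0.02. Acly, which makes acetyl-CoA from citrate, had 239, 173 and 259.9 CPM in 1X cytokine and 266, 224 and 201 CPM in 1X PBS. Ep300, a histone acetyltransferase, had 57.5, 59.1 and 45.6 CPM in 1X cytokine and 55.5, 59.6 and 70.7 CPM in 1X PBS. Both genes overlapped between labels, without the division by replicate. The 1X PBS replicate 1 was 2-fold outside its label in 0 of the 15 and replicate 1 of 1X cytokine in 1. Of 15 metallothionein and oxidative stress genes the list level was 95.8, 92.9 and 96.2 CPM in 1X cytokine and 95.5, 95.1 and 99.0 CPM in 1X PBS.

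Among 20 immediate early genes the 1X cytokine mean was higher for 1 and lower for 19, at a median log2 fold change of -0.39 and with 0 called. The median was -0.66 without 1X PBS replicate 1 and -0.18 without 1X cytokine replicate 3. Fos, a transcription factor induced within minutes of a stimulus, had 2103, 1759 and 1348 CPM in 1X cytokine and 1412, 2569.7 and 2705 CPM in 1X PBS. Dusp1, a phosphatase that ends MAP kinase signals, had 1179, 789 and 617 CPM in 1X cytokine and 604, 1660.1 and 1753 CPM in 1X PBS. The division by replicate was uneven here. In 13 of the 20 genes PBS replicate 1 lay at least 2-fold below replicates 2 and 3, while cytokine replicate 1 lay at least 2-fold above its own in 0.

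Of 14 genes of the unfolded protein and integrated stress responses the 1X cytokine mean was lower for all 14, at a median log2 fold change of -0.27. Hspa5, the chaperone BiP of the endoplasmic reticulum, had 1047, 644 and 686 CPM in 1X cytokine and 744, 1233 and 1129.5 CPM in 1X PBS. Of 18 circadian clock genes 14 had a higher and 4 a lower mean, with a median of 0.16. Leaving out replicate 1 of 1X cytokine gave 0.43, leaving out replicate 1 of 1X PBS gave 0.50, and leaving out replicate 3 of 1X PBS gave 0.05. Nr1d1, a repressor in the clock, had 132, 249 and 173 CPM in 1X cytokine and 201, 104 and 115 CPM in 1X PBS. Of 16 cholesterol synthesis genes 12 had a higher mean, with a median of 0.05, and of 18 glycolysis genes 10 did, with a median of 0.04. In Hspa5 and Nr1d1 the labels overlapped, and by edgeR 0 genes of these 4 lists were called.

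Markers of monocytes, macrophages and neutrophils moved with the division by replicate. The level of 12 monocyte and macrophage markers was 13.9, 2.31 and 3.24 CPM in 1X cytokine and 2.62, 48.9 and 47.7 CPM in 1X PBS. The level of 10 neutrophil markers was 30.3, 2.02 and 2.69 CPM in 1X cytokine and 2.84, 44.6 and 61.9 CPM in 1X PBS. S100a8, a calcium-binding protein abundant in neutrophils, had 129, 1.54 and 4.95 CPM in 1X cytokine and 4.94, 294 and 392 CPM in 1X PBS. The median log2 fold changes were -2.53 and -1.97, with 12 of 12 and 9 of 10 markers lower in mean and 0 called. Without 1X cytokine replicate 1 the medians were -4.27 over 13 monocyte and macrophage markers and -4.75 over the neutrophil markers. In the fit without 1X cytokine replicate 1, edgeR called 0 genes of either list. Without 1X PBS replicate 1 it called 10 of 13 and 1 of 10 lower, against 3.26% of all genes in that fit. Their part in the levels of Lcn2, Il1b, Cxcl2 and the other inflammatory genes above was not tested.

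The 20 microglia markers divided differently, at 28.0, 37.0 and 44.5 CPM in 1X cytokine and 26.8, 67.6 and 74.7 CPM in 1X PBS, so both replicate 1 libraries were lowest in their own label. The 8 erythrocyte genes were at 338, 60.0 and 130.1 CPM in 1X cytokine and 289, 498 and 1736 CPM in 1X PBS, and 1X PBS replicate 3 was the highest. The 10 choroid plexus markers were at 289, 117 and 197 CPM in 1X cytokine and 88.8, 249 and 243 CPM in 1X PBS. The 14 oligodendrocyte markers were at 285, 299.8 and 172 CPM in 1X cytokine and 280.3, 304 and 251 CPM in 1X PBS, without the division by replicate. Of 11 T and NK cell markers 1 was measured, Cd3d, and of 7 B cell markers 1, Ighm.

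**Figure D5:**
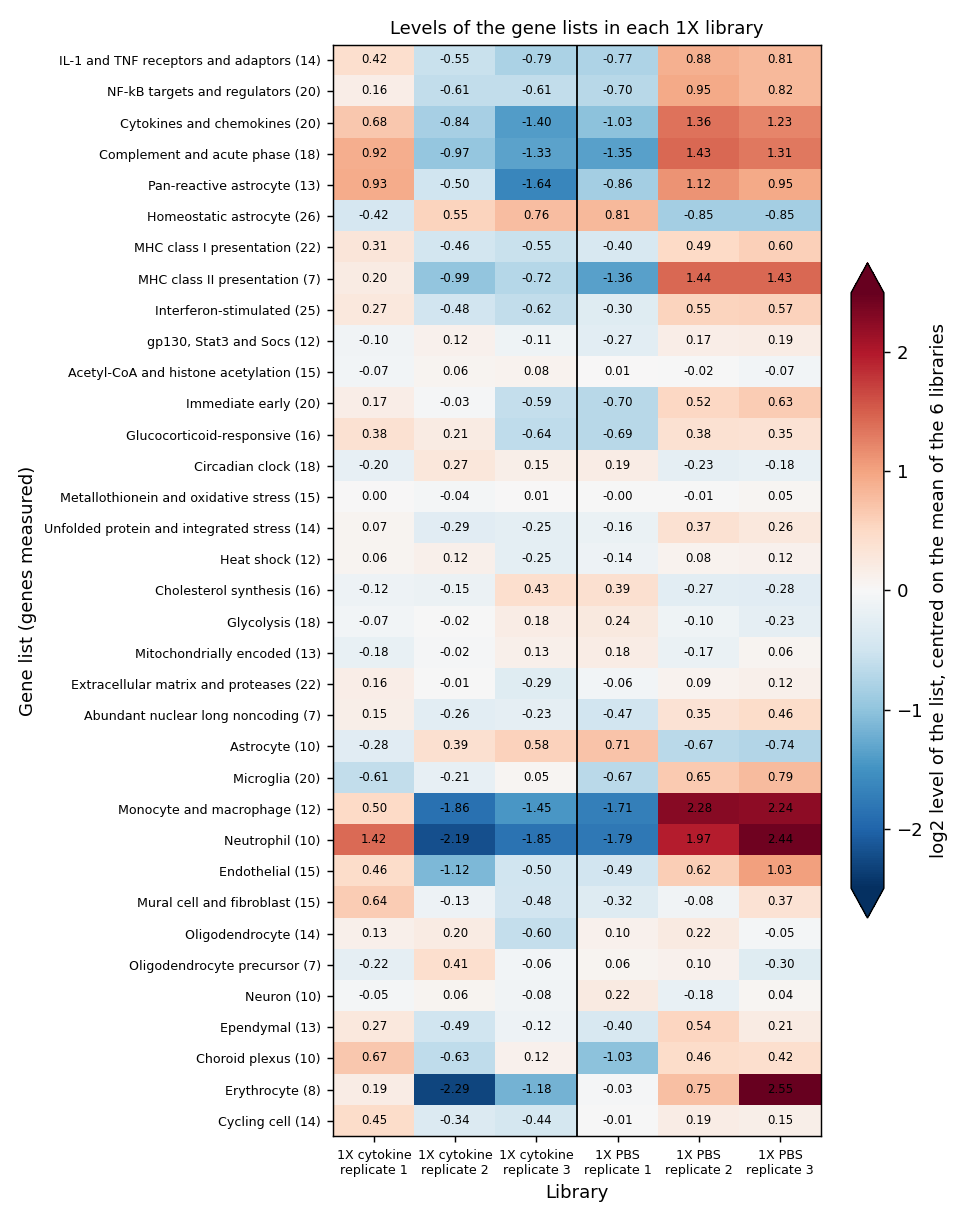
log2 level of 35 gene lists (rows, with the number of genes measured) in the 6 libraries (columns), centred on the mean of the 6. Red is above and blue below that mean, and 1X cytokine replicate 1 has the colour of 1X PBS replicates 2 and 3 in the cytokine, complement and neutrophil rows and the opposite colour to 1X cytokine replicates 2 and 3 in the homeostatic row.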

How the data were processed

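RNA-seq libraries were made with SMART-Seq2 and quantified with kallisto 0.46.1 on GRCm38, per the labels and the submitters' processing notes. The authors deposited, for each transcript, an estimated count, an effective length and a TPM value. The estimated counts were summed per gene and rounded to whole numbers, and the deposited TPM values were summed per gene for an alternative scaling. No source used here gives strand use, so genes that overlap on opposite strands, and near-identical copies such as the hemoglobin genes, are uncertain. All 12 RNA-seq libraries entered 1 fit with edgeR 4.0.16 (R 4.3.3), with TMM scaling, edgeR's filter on low counts, the quasi-likelihood F test and Benjamini-Hochberg adjustment over 14490 genes at a threshold of 0.05. CPM used TMM-scaled library sizes, and log2 values used CPM + 0.5. The level of a gene list was the mean of these log2 values over its measured genes, turned back to CPM. The test was also run on simulated counts in which all libraries of a label shared the same change. That run does not cover libraries unlike their own label, as found here. Alternatives were DESeq2 1.42.0, RLE scaling, other filters, TPM, effective lengths, the 6 libraries alone, a replicate block and leaving out each library. Named by rule were, among protein-coding genes with a mean CPM of at least 5, the 12 per direction with the widest distance between labels, the 8 per label and direction with replicate 1 farthest from its own label, and up to 6 per combination of both labels. The rule also named the 4 most abundant members of each function list (2 for cell types), members without overlap, and a panel of 30 genes. Genes named beside counts of 5 or fewer were chosen after their values were seen. One result under this rule is not reported here. The libraries and gene lists were chosen with earlier results of these data known. Replicate numbers were not taken as pairs. Library totals limit precision through counting error, and other effects of depth were not tested.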

Additional observations from a re-analysis of the deposited data

Results flagged for a closer look

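In Traf1, Cpeb1 and Bcl6 every library of one label lay on the same side in the 1X comparison and on the opposite side in the 2X comparison. The 1X effect less the 2X effect was -1.51 for Traf1, 0.95 for Cpeb1 and 0.69 for Bcl6 on the log2 scale. In a test of that difference over all 14490 genes, the edgeR adjusted p-values were 0.204, 0.519 and 0.808, and unadjusted p-values from edgeR were 0.000116, 0.000681 and 0.00409, so none passed the correction. Cpeb1 had 35.4, 38.4 and 40.1 CPM in 1X cytokine and 27.8, 23.3 and 27.8 CPM in 1X PBS, and 39.3, 30.9 and 29.4 CPM in 2X cytokine and 40.2, 44.4 and 48.6 CPM in 2X PBS. Bcl6, a transcriptional repressor, had 62.2, 80.6 and 67.6 CPM in 1X cytokine and 57.4, 55.1 and 58.2 CPM in 1X PBS, and 46.4, 54.3 and 61.5 CPM in 2X cytokine and 64.3, 72.9 and 75.8 CPM in 2X PBS. Over all genes edgeR called 0 (0%) of these differences, and 754 (5.20%) had an unadjusted p under 0.05.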

How the results depend on the processing

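The number of genes called was 2 with DESeq2 and 251 with no filter beyond 1 count, and from 0 to 1141 when single libraries were left out. It was 0 with RLE scaling, a stricter filter (mean CPM of 10 or more), the 6 libraries alone, effective lengths or a replicate block. Genes without overlap numbered 796 higher and 898 lower in 1X cytokine with no filter, and 876 and 207 on TPM, and 239 were lower under the stricter filter on mean CPM. A filter changes how many genes are examined, so counts under other filters are not comparable with those of the main filter. The no-overlap counts on TPM, within pairs and with libraries left out used the 14490 genes of the main fit. Compared within same-numbered pairs only, as a count with no fit, 924 were higher and 1081 lower in 1X cytokine in every pair. This condition is easier to meet by construction than no overlap. Leaving out single libraries gave 684 to 2670 higher and 773 to 2797 lower; with fewer libraries the condition is easier to meet by construction. Without replicate 1 of both labels, an alternative chosen after seeing the data, 3489 genes were called, and 4281 were higher and 4525 lower without overlap. Genes that set cytokine replicate 1 apart numbered 2246 with no filter and 606 under the stricter filter, and for PBS replicate 1 they numbered 3904 and 1460. The log2 fold change of Serpina3n ranged from -2.70 to 0.090 when single libraries were left out, and was above 0, at 0.082 and 0.090, without 1X PBS replicate 2 or 1X cytokine replicate 3. That of Slc1a3 ranged from -0.11 to 1.37, and was -0.05 without 1X PBS replicate 2 and -0.11 without 1X PBS replicate 3. The cause was not tested. For same-numbered libraries, deviations from the label mean correlated across genes at -0.62, -0.29 and -0.38, and the replicate numbers were not taken as pairs. Cytokine replicate 1 correlated best with PBS replicate 3 (0.54). Deviations within a label cancel out by construction, so these correlations depend on each other and cannot decide whether the numbers are pairs.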
